A study of Sus scrofa with 24 samples.

Results

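Sarcomere proteins and myosin heavy chains were followed across the infarcted pig heart through 7 genes: MYH7, MYH6, MYOM2, ACTN2, TCAP, LDB3 and MB. The genes were chosen by name, with earlier results of these data known, so counts of members called are descriptions. A probe belonged to a gene when the array file gave that symbol or an accession that maps to it, and the MYH6 probe was the only 1 named from its description (Myosin-6). This gave 38 of the 43603 probes on the array: 8 for MYH7, 13 for ACTN2, 12 for LDB3, 2 for TCAP and 1 each for MYH6, MYOM2 and MB. All 7 genes and all 38 probes passed the filter on dim probes, which left 34360 probes and 6231 named genes.

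RNA came from the hearts of 9 domestic pigs, all given aspirin and clopidogrel, in which an artery of the heart had been blocked and reopened without opening the chest. At 1 month after the infarct, the heart muscle was injected through a catheter with medium as placebo, or with the secretome of peripheral mononuclear cells that had been made apoptotic. Tissue was taken 1 month after that. The medium arm holds pigs 10, 18 and 40, which the labels mark as not treated and which are taken here as placebo; the secretome arm holds pigs 11, 12, 13, 14, 15 and 16. The study design names 8 pigs per arm. Each sample is 1 piece of tissue from 1 pig on 1 one-colour array: in the medium arm 3 from the border zone, 3 from the infarct core and 2 from the normal (remote) region, and in the secretome arm 6, 6 and 4. Pigs 12, 13 and 40 have no normal region array, so comparisons with the normal region within a pig rest on 6 pigs. No uninfarcted heart is among the arrays.

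The sarcomere is the repeating contractile unit of striated muscle. Myosin heavy chains form the thick filament and pull on the thin filament of actin, tropomyosin and troponin, while the M band links thick filaments at their middle and the Z disc anchors thin filaments at the ends. MYH7 encodes beta myosin heavy chain, the main, slow isoform of the ventricle in large mammals, and MYH6 encodes the faster alpha isoform, which is the main form in the atria. MYOM2 encodes myomesin 2, a cross-linker of the M band. ACTN2 encodes alpha-actinin 2, the actin cross-linker of the Z disc, TCAP encodes telethonin, which caps titin there, and LDB3 encodes the PDZ and LIM domain protein ZASP (Cypher), which binds alpha-actinin. MB encodes myoglobin, the oxygen store of heart and slow skeletal muscle, which is no sarcomere protein.

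Each probe is a 60-base oligonucleotide, printed here 5′ to 3′ as the array file lists it. Probes of MYH7, MYOM2 and MB are shown because the results differ among them, and stretches of the others because of a feature that sets the probe apart. Capitals mark AATAAA, the usual polyadenylation signal, or a CA repeat.
MYH7 A_72_P573064 (last 30 bases): gagggcgcaacaaagctcccagtcctggag
MYH7 A_72_P223897 (30 bases): accctttggaggaagcagAATAAAgcactt
MYH7 A_72_P614843: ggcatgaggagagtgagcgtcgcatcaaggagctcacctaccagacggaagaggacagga
MYH7 A_72_P529063: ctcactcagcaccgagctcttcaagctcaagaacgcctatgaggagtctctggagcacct
MYH7 A_72_P529715: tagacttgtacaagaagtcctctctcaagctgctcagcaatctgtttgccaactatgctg
MYH6 A_72_P024351 (last 30 bases): ctgacctatAATAAAcatgagcgcgaaaaa
MYOM2 A_72_P064551: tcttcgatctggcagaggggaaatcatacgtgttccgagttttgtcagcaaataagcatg
MB A_72_P302979: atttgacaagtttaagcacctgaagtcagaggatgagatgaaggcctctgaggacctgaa
TCAP, run shared by both probes: agaggatctggaatgcgctggg
ACTN2, 30 bases shared by 3 probes: gagagtggatcagtactgtctgctAATAAA
LDB3 A_72_P678277 (30 bases): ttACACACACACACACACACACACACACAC

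AATAAA was searched as those letters on both strands. It lay on the listed strand of 7 of the 38 probes and of 9.60% of all 43603 probes, and on the other strand of none of the 38 and of 4.17% of all. A CA repeat of 20 or more bases was held by 0.0206% of all probes on the listed strand and by 0.0344% on the other, and by LDB3 A_72_P678277 alone among the 38, where it runs for 29 bases. The MYH6 probe shares at most 7 bases in a row with any of the 8 MYH7 probes. The 8 MYH7 probes share at most 11 in a row with the probes of the skeletal myosins MYH1, MYH2 and MYH4. They share no more than 9 with each other either, apart from 1 pair with 41, though all are named for the same gene. Such runs between probes therefore cannot show whether a probe binds the RNA of another myosin, which was not tested. The files mark every probe as unmapped, so no position in the genome is given.

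The measured value is a log2 level: the log2 of the background-subtracted fluorescence of a probe on an array, minus the log2 of that array's 75th percentile, so that 0 lies at the 75th percentile and a step of 1 is a 2-fold change. Levels of different probes cannot be compared with each other, since probes differ in how well they bind. For genes with several probes the 1 with the highest mean level stands for the gene and is called the brightest probe. Differences between regions or arms were tested in limma over all 34360 probes with pig as a random block, giving both arms equal weight, and a probe was called at a Benjamini-Hochberg adjusted p under 0.05. Differences within a pig were tested by an exact two-sided sign-flip test over pigs.

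Between 61.5% and 75.6% of all probes were well above background on an array, and none of the 38 was flagged as saturated on any array. Before scaling, the brightest MYH7 probe had intensities of 513312 to 570587 in the 6 normal regions, whose arrays had 75th percentiles of 243 to 424. In the infarct cores it had 376811 to 533956, and 28552 in pig 40. Whether the signal of this probe was compressed at such brightness was not tested. The infarct core of pig 40 stood apart for these genes. It was the lowest of the 24 arrays for 7 of 7 members, and its gap to the next lowest array ran from 1.46 (MYH6) to 5.13 (MB). On that array all 7 brightest probes were still well above background, and the mean log2 level of 10 other cardiomyocyte markers (troponins, phospholamban, the ryanodine receptor and others) was 1.94, against 4.88 to 7.21 in the other 8 infarct cores. Most results are therefore given with and without it. The arrays were also scanned in 2 series: pigs 12, 13, 16, 18 and 40 in the first and pigs 10, 11, 14 and 15 in the second, so no pig spans both.

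In the infarct core, levels of 7 of 7 members were lower than in the normal region. Over all probes 53% were called in this comparison and 27.6% were called lower. The members' median difference was -2.58 on the log2 scale, against -0.05 over all probes. By the brightest probe of each gene, MYOM2 and MB fell furthest and MYH7 least, from 9.56-fold for MYOM2 to 2.19-fold for MYH7. The other MYH7 probes fell by 2.27-fold to 6.02-fold. Against the border zone, 7 of 7 were again lower in the core, with a median of -2.33, beside 46.7% of all probes called and 23.6% called lower. All 10 of the 10 measured cardiomyocyte markers outside the members were also lower in the core than in the normal region (median -2.12), while 7 of 7 measured fibroblast and scar markers and 6 of 6 macrophage markers were higher (medians 3.32 and 1.55). Less RNA per muscle cell and fewer muscle cells in the piece cannot be told apart in such samples.

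**Figure D1:**
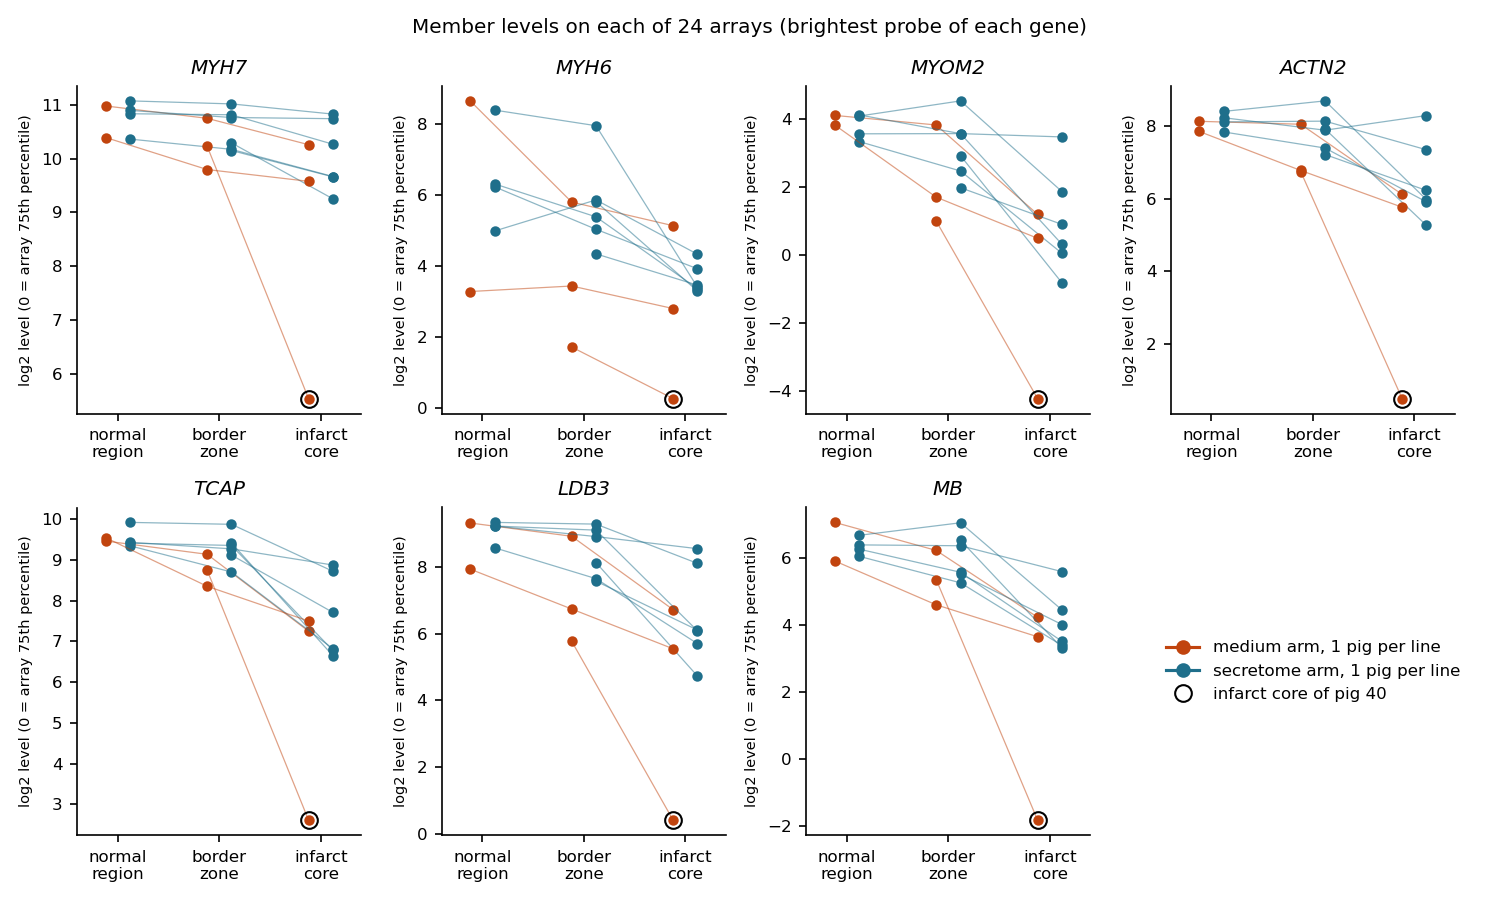
Log2 level of each member (vertical axes, 0 at the array's 75th percentile) in the normal region, border zone and infarct core, with 1 point per array and lines joining the arrays of a pig; orange is the medium arm, blue the secretome arm, and the ring marks the infarct core of pig 40. Levels of the normal region and border zone overlap for every member, and the ringed point is the lowest of the 24 in every panel.

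MYH7 was measured at 10.98 and 10.39 in the normal region of the 2 medium pigs and at 10.37, 10.84, 10.90 and 11.08 in that of the 4 secretome pigs. In the border zone the medium pigs had 9.80, 10.23 and 10.75, and the 6 secretome pigs ran from 10.15 over a median of 10.53 to 11.02. In the infarct core the medium pigs had 10.26, 9.58 and, in pig 40, 5.54, and the secretome pigs ran from 9.25 over 9.97 to 10.83. The cores of pigs 11 and 15 lay within the normal range and the other 7 below it. The fitted difference between core and normal region was -1.13 ± 0.39 (SE; limma, adjusted p = 0.0198), and -0.66 ± 0.15 without the core of pig 40 (adjusted p = 0.00131). With all arrays the call was lost with pig as a fixed block (-0.99, limma adjusted p = 0.0577), with quantile normalization (-0.42, 0.299), with normexp background correction (-1.11, 0.186) and with the authors' deposited values (-0.42, 0.336). MYH7 in the core against the border zone was at -1.13 ± 0.34 (adjusted p = 0.00946), and that call was lost with quantile normalization (-0.61, 0.0899), with the authors' deposited values (-0.54, 0.156) and with no block for pig (-1.13, 0.0712). Within pigs, MYH7 was lower in the core than in the border zone in 9 of 9, with differences from -0.02 (pig 15) to -4.69 (pig 40). Before scaling, its intensity in pig 15 was higher in the core (533956) than in the border zone (513751), and it was lower in the core of every other pig. The array 75th percentiles of pig 15 were 311 in the core and 295 in the border zone.

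For MYH6 the normal region was itself uneven: 8.66 and 3.28 in the medium pigs 10 and 18, and 4.98, 6.23, 6.32 and 8.40 in the secretome pigs 14, 11, 16 and 15. The border zone held 5.80, 3.43 and 1.71 with medium, and ran from 4.34 over 5.60 to 7.96 with secretome. The core held 5.13, 2.79 and 0.25 with medium and ran from 3.29 over 3.43 to 4.33 with secretome. So the core values of the 6 secretome pigs lay within a narrow band while those of the normal region spread over several log2 units, and the ranges overlap. The fitted difference between core and normal region was -2.58 ± 0.57 (limma, adjusted p = 0.000737). Against the border zone it was -1.51 ± 0.49 (adjusted p = 0.0159), and without the core of pig 40 that difference was -1.20 ± 0.52 and no longer passed (limma, adjusted p = 0.0710). Nor did it pass with normexp (-1.50, adjusted p = 0.0698), with the authors' deposited values (-1.22, 0.0579) or with no block for pig (-1.51, 0.160). With all arrays of any 1 pig left out, pig 40 included, MYH6 stayed called against the border zone, at -1.64 to -1.27. The largest within-pig difference was in pig 15, with 8.40 in the normal region and 3.40 in the core.

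MYH6 is the atrial form, so atrial markers are given beside it. Of 7 listed, 4 were measured, and in core against normal region 1 was lower and 1 higher; they include NPPA (atrial natriuretic peptide) and SLN (sarcolipin), and MYL7 and MYL4 have no probe named here. Their mean log2 level in the normal region was 1.41 and 2.01 in pigs 10 and 15, where MYH6 was highest, and 0.27 to 0.95 in the other 4. In the border zone it ran from 0.52 to 1.75 over the 9 pigs. In the core it ran from 1.23 to 2.53 in 7 pigs, with 0.35 in pig 16 and a lower value in pig 40, where MYH6 was lowest too. The part of such markers in the MYH6 levels was not tested.

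MYOM2, the M band cross-linker, had the largest difference of the 7. Its levels were 4.10 and 3.82 in the normal region with medium, and 3.34, 3.56, 4.08 and 4.12 with secretome. In the border zone they were 3.82, 1.70 and 1.00 with medium, and ran from 1.98 over 3.24 to 4.53 with secretome. In the core they were 1.20, 0.50 and -4.21 with medium, and ran from -0.81 over 0.61 to 3.47 with secretome. The core of pig 15 (3.47) lay within the normal range, and the other 8 cores lay below it. The fitted difference between core and normal region was -3.26 ± 0.55 (limma, adjusted p = 4.65e-05), and -2.80 ± 0.44 without pig 40's core.

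ACTN2, the Z disc cross-linker, was even across the normal region: 8.14 and 7.86 with medium, and 7.84, 8.12, 8.24 and 8.41 with secretome. The border zone held 8.06, 6.78 and 6.75 with medium, and ran from 7.22 over 7.91 to 8.70 with secretome. The core held 6.12, 5.77 and 0.50 with medium, and ran from 5.27 over 6.11 to 8.30 with secretome. Here too the core of pig 15 overlapped the normal region, and the other 8 did not. The fitted difference was -2.30 ± 0.52 (limma, adjusted p = 0.00088) with and -1.75 ± 0.32 without the core of pig 40.

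TCAP, the titin cap, had normal region levels of 9.46 and 9.54 with medium and 9.34, 9.41, 9.43 and 9.92 with secretome. The border zone held 9.14, 8.35 and 8.75 with medium, and ran from 8.70 over 9.31 to 9.87 with secretome. The core held 7.25, 7.50 and 2.61 with medium, and ran from 6.65 over 7.26 to 8.87 with secretome. All 9 core values lay below all 6 normal region values. The fitted difference between core and normal region was -2.51 ± 0.47 (limma, adjusted p = 0.000143), and -1.99 ± 0.26 without pig 40's core.

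LDB3 had normal region levels of 9.33 and 7.94 with medium and 8.58, 9.24, 9.24 and 9.35 with secretome. The border zone held 8.93, 6.75 and 5.78 with medium, and ran from 7.58 over 8.53 to 9.30 with secretome. The core held 6.73, 5.55 and 0.41 with medium, and ran from 4.73 over 6.10 to 8.56 with secretome. The cores of pigs 11 and 15 overlapped the normal region. The fitted difference was -2.87 ± 0.54 (limma, adjusted p = 0.000163) with and -2.36 ± 0.39 without the core of pig 40.

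MB, the oxygen store, had normal region levels of 7.05 and 5.90 with medium and 6.04, 6.25, 6.38 and 6.66 with secretome. The border zone held 6.21, 4.59 and 5.35 with medium, and ran from 5.25 over 5.96 to 7.04 with secretome. The core held 4.22, 3.64 and -1.83 with medium, and ran from 3.30 over 3.75 to 5.58 with secretome. As for TCAP, no core value reached the normal region. The fitted difference between core and normal region was -3.00 ± 0.54 (limma, adjusted p = 0.000102), and -2.38 ± 0.27 without pig 40's core.

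Ordered by their means, the 6 groups of region and arm ran from the normal region over the border zone to the core for every member, the arms taken separately. In each member, the ranges of every pair of groups next to each other in that order overlapped. Without the core of pig 40, 7 of 7 members were still called lower in core than in normal region, where 52.9% of all probes were called and 27.7% called lower. Against the border zone 6 of 7 were called, all but MYH6, beside 39.9% of all probes called and 20.3% called lower. The differences were smaller in every member: the median went from -2.58 to -2.34 against the normal region and from -2.33 to -1.53 against the border zone. Against the border zone, MYH7 moved from -1.13 to -0.41, and ACTN2, TCAP and MB from -2.22, -2.33 and -2.69 to -1.38, -1.53 and -1.73.

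**Figure D2:**
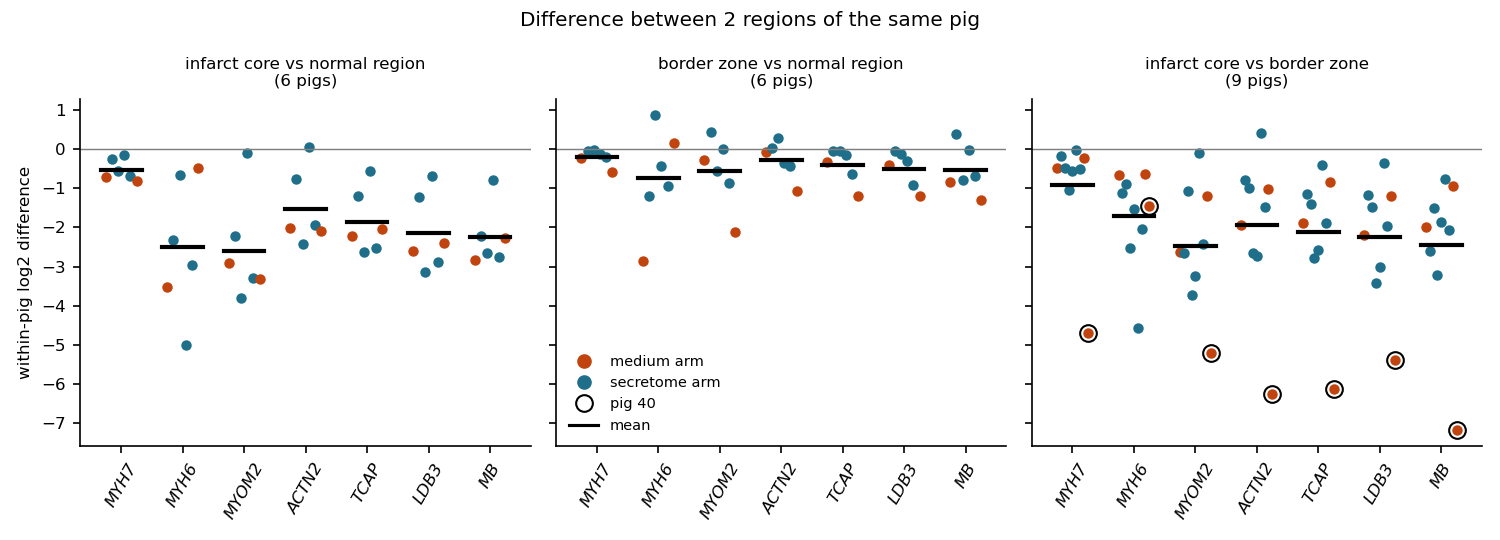
Difference in log2 level between 2 regions of the same pig (vertical axis) for each member, with 1 point per pig, orange for the medium arm and blue for the secretome arm; the black bar is the mean and the ring marks pig 40. In the core against the border zone, 9 of 9 pigs lie below 0 for every member except ACTN2, for which pig 15 lies above.

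Comparing regions within each pig gave 16 of 21 tests past an adjusted p of 0.05. Core against border zone passed for 7 of 7 members: 6 members were lower in 9 of 9 pigs (exact sign-flip p = 0.00391, the smallest 9 pigs allow; adjusted p = 0.0137), and ACTN2 in 8 of 9 (exact p = 0.00781, adjusted p = 0.0234). The mean differences ran from -0.91 ± 1.45 (SD, n = 9) for MYH7 to -2.48 ± 1.54 for MYOM2. Without pig 40 they ran from -0.44 ± 0.31 (SD, n = 8) for MYH7 to -2.13 ± 1.23 for MYOM2, and 7 of 7 still passed. Core against normal region passed for 6 of 7, with ACTN2 lower in 5 of 6 pigs (exact sign-flip p = 0.0625). Some signs differed before scaling. In pig 15, intensities were higher in core than in normal region for MYH7 (533956 against 533159) and MYOM2 (3453 against 3301). Core intensities were also above the border zone for MYH7 in pig 15 and for MYH6 in pig 40. The part of the scaling in these tests was not tested.

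Pig 15 kept most of its sarcomere signal in the core while losing MYH6. Core minus border zone was 0.40 for ACTN2 and -0.02, -0.10, -0.36, -0.40 and -0.77 for MYH7, MYOM2, LDB3, TCAP and MB. For MYH6 it was -4.56, the largest MYH6 difference of the 9 pigs. Pig 40 was the reverse: core minus border zone was -4.69 to -7.17 for the other 6 members and -1.46 for MYH6. Its MYH6 level in the border zone, 1.71, was already the lowest of the 9. Before scaling, MYH6 of pig 40 had an intensity of 731 in the core and 687 in the border zone. Those arrays had 75th percentiles of 614 and 210, which enter the difference of every member in pig 40. The other 6 members were lower in its core before scaling too. The mean log2 level of the cardiomyocyte markers was 7.21 in the core of pig 15, the highest of the 9 cores. That of the fibroblast and scar markers was 4.39, the lowest. That of the macrophage markers was 4.29, where the 9 cores ran from 2.99 to 4.90, and it was 2.48 in the border zone of pig 15. The part of these markers in the members' levels was not tested.

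Between border zone and normal region, none of the 7 members was called in limma (adjusted p 0.405 to 0.999; 0 also at an unadjusted p under 0.05). Over all probes 0.466% were called (157 higher and 3 lower), and 4910 of 34360 had an unadjusted p under 0.05. The 160 calls depended on single pigs: none was left when either 16 or 40 was omitted. Omitting 10, 12, 14 or 18 left 1, 21, 97 and 19 calls, in that order, and omitting 11 raised the number to 269. The fitted differences ran from -1.06 ± 0.57 for MYH6 to 0.00 ± 0.39 for MYH7, with a median of -0.31. Within pigs the border zone was lower than the normal region in 6 of 6 for MYH7, TCAP and LDB3, with mean differences of -0.20, -0.40 and -0.50 (exact sign-flip p = 0.0312, the smallest 6 pigs allow; adjusted p = 0.0410). It was lower in 5 of 6 for MB and in 4 of 6 for MYH6, MYOM2 and ACTN2, none of which passed. The adjustment covered all 21 within-pig tests, those with the core included. Unscaled MYH7 intensities were not lower in the border zone of pigs 11 and 16, at 523848 and 544057 against 523698 and 533988. They were lower in pigs 10, 14, 15 and 18. Array 75th percentiles were higher in the border zone in all 6 pigs. The gap was smallest in pig 14 (284 against 281) and largest in pig 18 (591 against 424). The part of this scaling in the MYH7 result was not tested. Pig 18 had the lowest border zone relative to its own normal region for 6 of these 7 members, and for MYOM2 that difference was -2.12. The fibroblast and scar markers had a mean log2 level of 1.54 to 3.24 in the 6 normal regions and of 1.25 to 4.74 in the 9 border zones; their part in the border zone levels was not tested.

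Secretome against medium was compared within each region, and no member was called in any. In the core the fitted differences, secretome minus medium, ran from 0.90 ± 1.04 for MYH6 to 2.38 ± 0.95 for ACTN2, with a median of 1.81. The adjusted p was 0.974 to 0.980 in limma, 4 of 7 members had an unadjusted p under 0.05, and 0.0146% of all probes (5) were called, a count that ran from 0 to 11 when 1 pig was left out. Without the core of pig 40, 1 of 3 medium arrays, the median was 0.27 and the differences ran from 0.12 ± 0.58 for MB to 0.84 ± 0.82 for LDB3. The members' differences between arms in the core thus moved with that 1 array. Within the first scan series, which holds pigs 18 and 40 of the medium arm, they ran from 1.84 to 2.70, and within the second, which holds pig 10, from -1.25 to 1.09, with no member called in either.

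In the border zone the differences between arms ran from 0.28 ± 0.72 for MYH7 to 2.08 ± 1.04 for MYH6 (limma, adjusted p 0.685 to 0.919), with 0% of all probes called; within the first scan series they ran from 0.19 to 2.61 and within the second from -0.0010 to 0.48. Here MYH6 was 5.80, 3.43 and 1.71 with medium against 4.34 to 7.96 with secretome, which overlap. Macrophage markers had a mean log2 level of 2.84 to 3.25 in the border zone with medium and of 1.53 to 2.84 with secretome. Their part in the members' levels was not tested. In the normal region, with 2 medium and 4 secretome arrays, 0 of 7 members were called beside 0% of all probes, and the fitted differences ran from 0.33 to 1.14.

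The drop from border zone to core was also read in each arm. With medium, 6 of 7 members were called lower in the core, all but MYH6 (-0.92 ± 0.81), with a median of -2.96, beside 23.3% of all probes called and 12.6% called lower. Without the core of pig 40 none of the 7 was called with medium (limma, adjusted p 0.0798 to 0.885; 5 at an unadjusted p under 0.05), the median was -1.39, and the share of probes called was 0.463% (0.0844% lower). With secretome, 6 of 7 were called, all but MYH7 (-0.47 ± 0.39), with a median of -1.90, beside 40.1% of all probes called and 21.1% called lower. Without the core of pig 40, which enters the spread shared by all groups, 7 of 7 were called with secretome, MYH7 at -0.47 ± 0.15 (limma, adjusted p = 0.0148), beside 43.8% of all probes called and 23.3% called lower. The test of the difference between the arms called no member and no probe (0%): it was 1.34 ± 0.68 for MYH7, 1.69 ± 0.90 for ACTN2 and -1.19 ± 0.99 for MYH6 (limma, adjusted p 0.841 to 0.901 over the 7). Without pig 40's core these were -0.12 ± 0.29, 0.02 ± 0.59 and -1.82 ± 1.03.

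MYH7 had the smallest mean within-pig difference of the 7, as read by its brightest probe. The change of each other member was set against that of MYH7 within each pig, in 12 tests. Against the normal region, TCAP, LDB3 and MB fell further than MYH7 in 6 of 6 pigs, with mean differences from MYH7 of -1.33, -1.62 and -1.72 (exact sign-flip p = 0.0312, adjusted p = 0.0469). Against the border zone MYOM2, TCAP, LDB3 and MB fell further in 9 of 9, with means of -1.56, -1.21, -1.33 and -1.55 (exact p = 0.00391, adjusted p = 0.0117), and ACTN2 in 8 of 9 with -1.03 (exact p = 0.00781, adjusted p = 0.0188). MYH6 did not pass in either comparison. In pig 40 it fell 3.24 less than MYH7, and without that core MYH6 fell further than MYH7 in 8 of 8 pigs (mean -1.31; exact p = 0.00781, adjusted p = 0.0188).

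That result depended on the MYH7 probe. A_72_P573064 and A_72_P223897, the 2 brightest of the 8, fell by 1.13 ± 0.39 and 1.18 ± 0.41 from normal region to core, and the other 6 had differences of -1.92 to -2.59. The dimmest, A_72_P529715, had the largest difference, -2.59 ± 0.60. All 8 were called (limma, adjusted p 0.00112 to 0.0198). With A_72_P223897 in place of the brightest probe, 8 of the 12 tests again passed. With the 6 dimmer probes, from brighter to dimmer, 3, 3, 4, 2, 0 and 0 passed. For the 3 MYH7 probes printed whole, A_72_P614843, A_72_P529063 and A_72_P529715, the fitted fall was 4.04-fold, 5.26-fold and 6.02-fold. The brightest probes of the other 6 members fell by 4.93-fold (ACTN2) to 9.56-fold (MYOM2). These fits include the core of pig 40. Within the 6 pigs with a normal region array, pig 40 not among them, core minus normal region averaged -1.25, -1.66 and -1.77 for these 3 probes. It averaged -0.53 for the brightest MYH7 probe and -1.53 (ACTN2) to -2.60 (MYOM2) for the other 6 members.

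**Figure D3:**
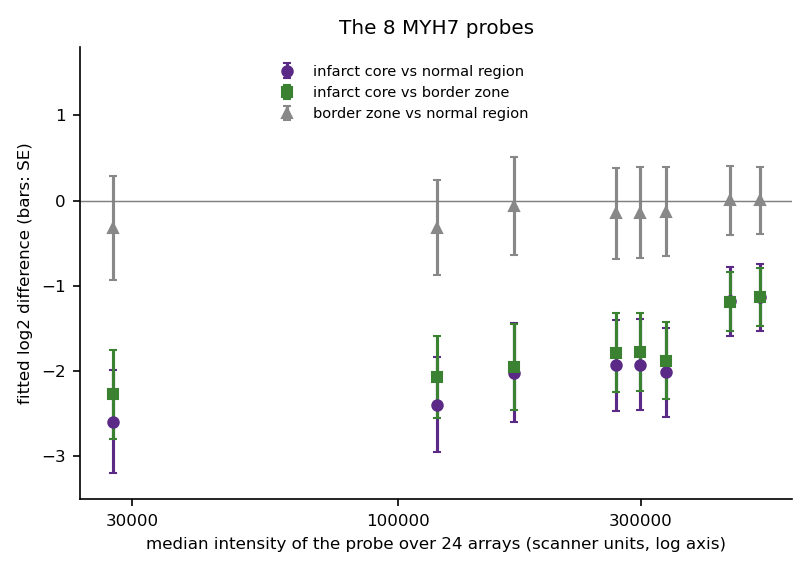
Fitted log2 difference (vertical axis, bars are SE) of the 8 MYH7 probes against each probe's median intensity over the 24 arrays (horizontal log axis) for 3 comparisons of regions. In both comparisons with the core the 2 brightest probes lie nearest to 0, at -1.13 and -1.18 (core against normal region), and the dimmest lies furthest, at -2.59.

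The probes of the other genes with several probes were closer to each other. All 13 ACTN2 probes were called lower in core than in normal region, from -2.12 to -2.66. Both TCAP probes, which share 22 bases in a row, gave -2.51 and -2.67. Of the 12 LDB3 probes, 11 gave -2.16 to -2.88. The exception was A_72_P678277, the probe with the CA repeat, at -0.52 ± 0.15, still called (limma, adjusted p = 0.00722), and at -0.31 and not called against the border zone (adjusted p = 0.0644). In all, 38 of 38 probes were called lower in core than in normal region and 37 of 38 in core than in border zone, where 27.6% and 23.6% of all probes were called lower. Probes of 1 gene share its RNA and are not replicates, and some overlap in sequence.

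**Figure D4:**
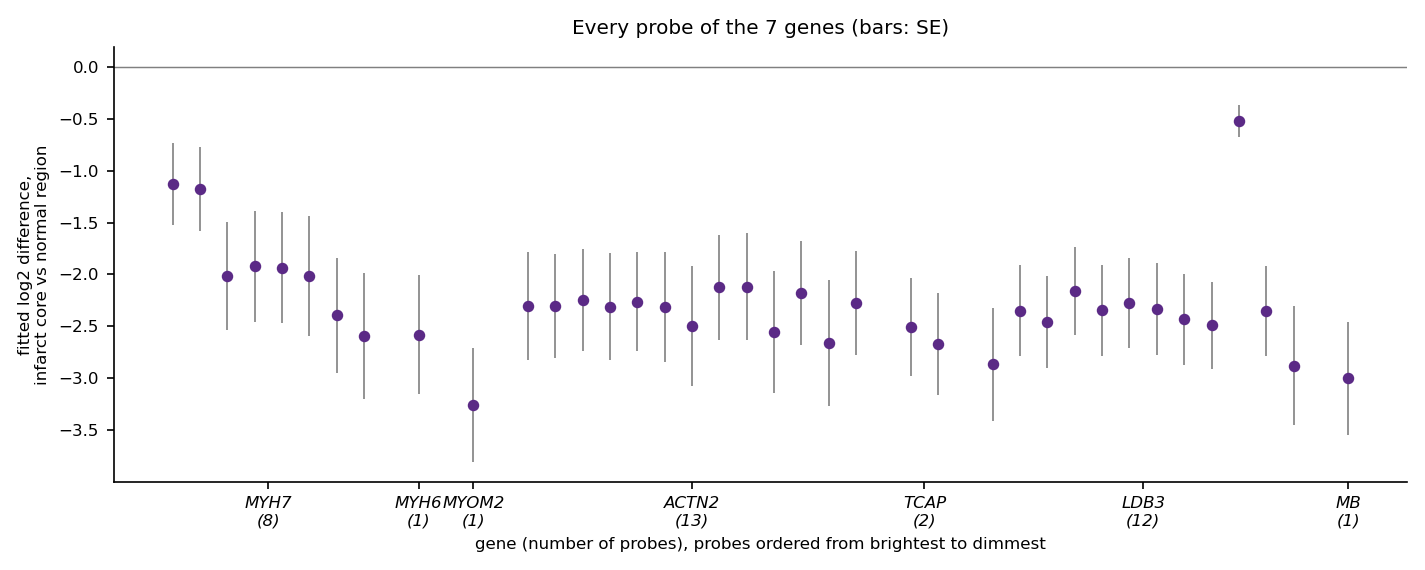
Fitted log2 difference between infarct core and normal region (vertical axis, bars are SE) for each of the 38 probes, grouped by gene and ordered from the brightest to the dimmest probe. All lie below 0; the 2 brightest MYH7 probes (-1.13 and -1.18) and the LDB3 probe with the CA repeat (-0.52) lie nearest to it.

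Levels also differed between the 2 scan series, by probe. This was read in the border zone of the secretome arm, which has 3 pigs in each series. The 75th percentile that scales these arrays was 423 to 471 in the first series and 252 to 295 in the second. Before scaling, the brightest MYH7 probe overlapped between the series, with intensities of 486044 to 544057 in the first and 512308 to 523848 in the second. The scaled levels of all 8 MYH7 probes were lower in the first series, with no overlap. First minus second was -0.66 for the brightest and -1.85 for the dimmest. It was -1.43 for MYOM2 and -1.32 for the brightest LDB3 probe, again with no overlap. Of the 13 ACTN2 probes, 10 had differences of -0.37 to -1.19, while A_72_P594269, A_72_P496366 and A_72_P576449 were higher by 1.72, 1.78 and 1.07. In the normal region these 3 were higher in the first series by 2.14, 2.13 and 1.50, and the other 10 ran from -0.78 to 0.05.

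Probes of ACTN2 that share sequence went opposite ways. A_72_P595764 shares 44 bases in a row with A_72_P594269 and 34 with A_72_P496366, and the 30 bases printed above lie in all 3. Its difference between the series was -0.54, where the other 2 were higher in the first. The 3 probes that were higher are 35% G and C, the lowest share among the ACTN2 probes, and A_72_P595764 is 36.7%. LDB3 probes with the same 35%, A_72_P558279, A_72_P693904 and A_72_P508586, had differences between the series of 0.35, 0.06 and -0.30. All arrays of a pig lie in 1 series, so the series and the pigs in it cannot be told apart for a level, whereas differences between regions of a pig lie within a series.

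**Figure D5:**
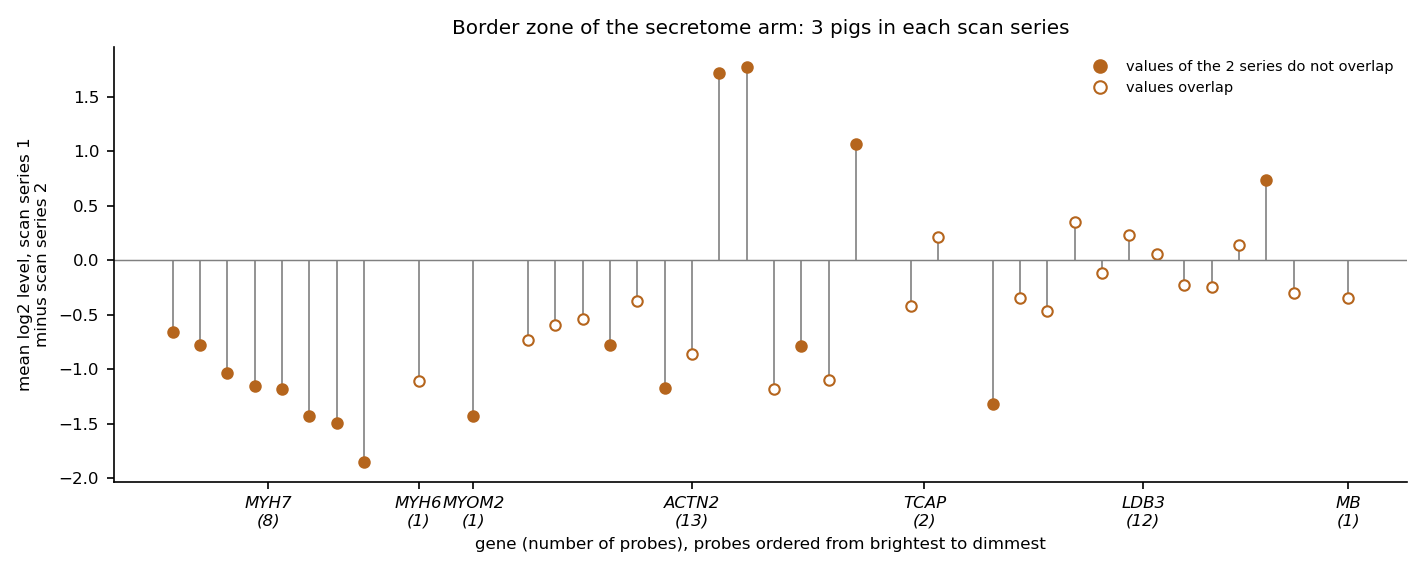
Mean log2 level in the first minus the second scan series (vertical axis) for each of the 38 probes in the border zone of the secretome arm, 3 pigs per series; filled points have no overlap between the series. All 8 MYH7 probes lie below 0, and 3 of the 13 ACTN2 probes lie above 1 while the other 10 lie below 0.

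Within each scan series the fall in the core kept its direction for every member. In the first series the fitted differences between core and normal region ran from -1.66 to -4.24 and 6 of 7 passed, all but MYH7, beside 42.7% of all probes called and 22.9% called lower. In the second they ran from -0.52 to -3.09 and 5 of 7 passed, all but MYH7 and ACTN2, beside 28.3% of all probes called and 14.1% called lower. Against the border zone 6 of 7 passed in the first (31.7% of all probes called, 17.1% lower) and 4 of 7 in the second (16.5% called, 7.46% lower), where MYH7, MYH6 and ACTN2 did not. With the series as a covariate over all arrays, 7 of 7 were called in both comparisons, beside 55.1% of all probes called (29.1% lower) against the normal region and 48.4% (24.8% lower) against the border zone.

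Across the 24 arrays 6 of the members followed each other closely, with Pearson correlations of 0.89 to 0.98 between their log2 levels, and MYH6 less so, with 0.65 to 0.78. Without pig 40's core these were 0.78 to 0.96 and 0.51 to 0.73. The arrays share pigs, scan series and the contrast of regions, so these are descriptions. Among 6209 genes compared, those most like MYH7 were TPM1 (alpha-tropomyosin), TNNI3 (cardiac troponin I) and DES (desmin), each at 0.98. Those most like ACTN2 were UNC45B (a myosin chaperone), TRIM55 (a muscle ring finger protein) and RYR2 (the calcium release channel), at 0.98 to 0.99. For TCAP they were POPDC3, TMEM182 and CKM (muscle creatine kinase), at 0.98 to 0.99, and for LDB3 they were POPDC2, PYGM (muscle glycogen phosphorylase) and TRIM55, at 0.98 to 0.99.

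The genes most like MYOM2 were CPT1B (the muscle carnitine palmitoyltransferase), ITGB6 and FXR2, at 0.98 to 0.99. For MB they were STOX1, CHRM2 (a muscarinic receptor) and ENO3 (muscle enolase), at 0.97 to 0.98. MYH6 stood apart here as well: MYOZ3 (a calsarcin of the Z disc) came first at 0.91, then PPP1R9B at 0.88. Only 1 gene exceeded 0.9 with MYH6, against 50 with MYH7 and 138 to 307 with the other 5 members. Such correlations rest on 24 arrays and say nothing of a shared function or control.

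The rest of the sarcomere was read from 5 lists of named genes, of which 43 of 81 had a kept probe. In the core against the normal region 34 were lower and 2 higher, with a median of -1.75, beside 53% of all probes called, 27.6% called lower and a median of -0.05. Of the thick filament and M band list 5 of 6 were lower, among them UNC45B (-2.39 ± 0.44), TRIM55 (-2.62 ± 0.49) and SMYD1 (-2.46 ± 0.58), a methyltransferase that binds myosin. Of the Z disc list 11 of 13 were lower, led by KLHL41 (-2.64 ± 0.50), NRAP (-2.21 ± 0.53), an actin anchor, and MYOZ1 (-1.55 ± 0.40). Of the muscle energy and oxygen list 9 of 10 were lower, among them AK1 (-2.55 ± 0.34), PGAM2 (-3.19 ± 0.50) and COX7A1 (-2.48 ± 0.41).

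The thin filament list was mixed. TNNC1, the calcium-binding troponin, was lower (-2.18 ± 0.53), as were 7 others of the 12 measured. TPM3 and TPM2, tropomyosins also made outside heart muscle cells, were higher (1.22 ± 0.14 and 0.62 ± 0.14; limma, adjusted p = 1.34e-06 and 0.000626). Of the other myosin heavy chains only MYH4 and MYH1, fast skeletal forms, had a kept probe: MYH4 was lower in the core (-1.91 ± 0.49, adjusted p = 0.00242) and MYH1 was not called (-0.56 ± 0.60, adjusted p = 0.455). Of 8 MYH4 probes 2 were kept, and the brightest was well above background on 24 of 24 arrays. Whether it reads MYH4 RNA was not tested. Of 3 MYH1 probes 1 was kept, and it was well above background on 3 of 24 arrays. In the border zone against the normal region 0 of the 43 were called.

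Without the core of pig 40 the counts against the normal region were 5 of 6 lower for the thick filament and M band, 7 of 12 lower and 2 higher for the thin filament, 11 of 13 for the Z disc, 1 of 2 for the other myosin heavy chains and 9 of 10 for muscle energy. The medians moved to -1.66, -0.82, -0.89, -1.04 and -2.20. The median of the Z disc list had been -1.42 and that of the thin filament list -1.25 with that array. No gene of these lists was called between the arms in any region, beside 0.0146% of all probes in the core and 0% in the other regions with all arrays. In the core the median of the 43 genes, secretome minus medium, was 1.78 with all arrays. Without the core of pig 40 the medians of the lists ran from -0.37 to 0.63.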

How the data were processed

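RNA of 24 heart samples from 9 pigs was measured on Agilent one-colour porcine arrays, 100 ng of RNA labelled per sample, with an RNA integrity number above 6 per the labels. The deposited files hold spot intensities, with a processed signal from which the scanner software (per the file headers Feature Extraction 10.7.3.1) had subtracted background. The series value table deposited by the authors holds log2 values; limma 3.14.4 is named in the submitters' processing notes, with no role named, and how the table was normalized is not given in the sources used here. It holds 26221 of the probes used, its column medians are 8.071 to 8.075 over them, each column matched its own array best after probes were centred (r 0.728 to 0.825), and which scaling set its level is unknown. It served as an alternative.

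Spots flagged as outliers (1 to 27 per array) were left out, spots of a probe averaged, and the signal scaled to each array's 75th percentile on the log2 scale. The filter on dim probes asked for a signal well above background on at least 3 arrays. Of the probes, 9240 took their symbol from a RefSeq accession, 1466 from a gene ID and the rest from names in the files (3532) or, for 1, its description; accessions were matched through RefSeq's gene table of assembly Sscrofa11.1, used for names only, and 29325 probes had no symbol and 39 several. limma 3.58.1 (R 4.3.3, statmod 1.5.0) fitted 6 group means with pig as a random block (correlation 0.548), with Benjamini-Hochberg adjustment over all kept probes and a threshold of 0.05. The exact sign-flip tests were adjusted over 21 and 12 tests. Python 3.11.15 (numpy 2.4.6, pandas 2.3.3, matplotlib 3.10.9) made the rest. The fit and the sign-flip test were tested on simulated data. The number of arrays limits the precision.

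Regions of a pig come from the same animal: the 21 pairs of arrays of 1 pig had deviations from their group means that correlated at 0.583 on average, and at 0.12 or more in each. The named genes are the 7 members with every probe, the 3 genes most correlated with each (1 of those for MYH6 is not reported here), and the 3 with the smallest p in core against normal region of each sarcomere list. The members and the lists were chosen with earlier results of these data known. Alternatives were other scalings, background correction, filters, blocks, batches and probes, and leaving out pigs. Marker lists of smooth muscle, endothelium, skeletal muscle, adipocytes, mesothelium and erythrocytes were also read: between core and normal region 4 of 7, 3 of 7, 1 of 5, 2 of 5, 0 of 4 and 0 of 1 measured genes were lower and 1, 0, 0, 0, 2 and 0 higher.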

Additional observations from a re-analysis of the deposited data

Results flagged for a closer look

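The 7 members were checked for an array far from the others in the 3 groups that hold 4 to 10 arrays, which gave 21 groups, and 2 stood out; chance alone sets apart about 1 in 20. In the normal region of the secretome arm, TCAP was 9.92 in pig 11, and the nearest of the other 3 was 9.43. In the same group LDB3 was 8.58 in pig 16, and the nearest of the others was 9.24. Pig 16 is the only pig of that group in the first scan series. For this LDB3 probe, first minus second series was -1.32 in the border zone of the secretome arm and -1.02 over the normal regions. The part of the scan series in this value was not tested.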

How the results depend on the processing

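The cores were lower than the normal region and the border zone for all 7 members under every alternative run, and 318 of 336 such values kept their side of the threshold. MYH7 lost its call against the normal region with quantile normalization, normexp, the authors' values, a fixed replicate block (adjusted p = 0.0577) and within either scan series, and against the border zone in the same settings except normexp and the fixed block, and with no replicate block (0.0712). MYH6 lost its call against the border zone with normexp, the authors' values, no replicate block (0.160), within the second scan series and without the core of pig 40, and ACTN2 lost both calls within the second series. The replicate block changed no other call. Members called in core against border zone were 4 of 7 within the second series. Normexp moved the median of all probes to -0.21, -0.24 and 0.12 (core against normal, border against normal, core against border), and cut the probes called in core against normal region from 18203 to 6847 and in core against border zone from 16044 to 6147 (9223 with no replicate block). Within the second series these were 9714 and 5663. The 5 probes called between arms in the core became 0 to 36 over the alternatives, and the 0 called in the border zone 0 to 8. In border zone against normal region the 160 called probes became 22 with normexp, 96 with no filter, 73 with a filter on all arrays, 333 and 3 within the series, 3 when slides were the block and 0 with no replicate block, a fixed block, scan series as covariate or the authors' values.

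Of the 21 within-pig tests 16 passed. This became 6 with quantile normalization, 7 with normexp, 6 with the authors' values and 0 within either scan series, where too few pigs remain to pass, and 7 to 16 when leaving out 1 pig (7 without each of pigs 10, 11, 14, 15, 16 and 18, since 5 pigs then hold a normal region). Of the 12 tests of MYH7 against another member 8 passed. This became 1 with normexp, 4 with the mean of a gene's probes, 0 within either series, 5 to 9 when leaving out 1 pig, and 3, 3, 4, 2, 0 and 0 with the dimmer MYH7 probes, an alternative chosen after seeing the data, as were reading every probe singly and the lists without the core of pig 40.

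Signs turned only among values that were not called. For border zone against normal region, MYH7 (0.00) became -0.024 with no filter, -0.34 with no replicate block, -0.035 with scan series as covariate, -0.20 when slides were the block, -0.094 and -0.15 within the series, -0.14 with the mean of probes and -0.25 without the core of pig 40, and ranged from -0.25 to 0.18 when leaving out 1 pig. ACTN2 became 0.059 with quantile normalization, 0.071 with normexp and 0.11 with a fixed replicate block (-0.33 to 0.21 leaving out 1 pig; -0.36 without the core of pig 40), and TCAP 0.070 with normexp (-0.46 to 0.11). For secretome against medium, MYH6 in the core became -1.25 within the second series (-0.34 to 2.10 leaving out 1 pig), and MB in the border zone -0.0010. For the difference of the drop between arms, MYOM2 became -0.50 with normexp. Without the core of pig 40, MYH7, MYOM2, TCAP, LDB3 and MB became -0.12, -0.51, -0.33, -0.46 and -0.54. Their lowest values when leaving out 1 pig, reached without pig 40, were -0.11, -0.29, -0.33, -0.20 and -0.53, and their highest 2.13, 1.71, 2.31, 1.89 and 2.58. The cause of these changes was not tested. With 3 medium pigs, differences between arms have wide intervals.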
